A study of Mus musculus with 4 samples.

Results

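The heat shock proteins and their DnaJ co-chaperones are the cell's main protein-folding machinery, and 74 of the 21883 features in each deposited table belong to them by name. The members are all features whose symbol begins with Hspa, Hspb, Hspd, Hspe, Hsph or Hsp90, or with Dnaja, Dnajb or Dnajc followed by a digit, and the same 74 symbols were found in the tables of both tissues. All RNA came from wild-type young adult male mice of the BL6/C57 strain in which the sciatic and femoral nerves of the left leg were transected, taken after 7 days. The 4 groups were ipsilateral and contralateral dorsal root ganglia (DRG, the ganglia of sensory neuron cell bodies, levels L4 to L6), and lumbar dorsal cord (the spinal region that receives sensory fibres) from the ipsilateral and from the contralateral side. Each group was 1 library, so no difference below has a replicate check, and the sources used here do not say whether animals were pooled. Contralateral tissue also came from operated mice and is not uninjured tissue.

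Hsp70 proteins bind unfolded stretches of other proteins and release them on hydrolysing ATP, and DnaJ proteins (also called Hsp40) deliver the clients and start that hydrolysis. Hsp110 proteins exchange the nucleotide of Hsp70, Hsp90 finishes the folding of kinases and steroid receptors, the chaperonin of Hspd1 and Hspe1 folds proteins inside mitochondria, and small heat shock proteins hold unfolded proteins without ATP. In sensory neurons the small heat shock protein Hspb1 (Hsp25 in mice, Hsp27 in humans) is known from earlier work as a survival factor after axon injury, and mutations of human HSPB1 and HSPB8 cause inherited motor and sensory neuropathies. Heat shock factors drive many of these genes through inverted repeats of GAA in their promoters, while chaperones of the endoplasmic reticulum (ER) are driven through a separate ER stress element.

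Promoter windows of 4 members show these elements and the genes the results turn on. Each window holds 250 bases before and 50 after the gene start, on build GRCm38.p6 as RefSeq gives it, 5′ to 3′ on the gene's strand. Hspb1 (chr5:135887669-135887968, plus strand) had the largest DRG log2 ratio of the members, Hspe1 (chr1:55087898-55088197, plus strand) differed in cord, Hspa1b (chr17:34959189-34959488, minus strand) is the textbook stress-induced Hsp70 gene, and Hspa5 (chr2:34771840-34772139, plus strand) is the ER member. Capitals mark matches to GAANNTTC or TTCNNGAA in the windows of Hspb1, Hspe1 and Hspa1b, and to the ER stress element, CCAAT and CCACG set 9 bases apart, in that of Hspa5.
Hspb1: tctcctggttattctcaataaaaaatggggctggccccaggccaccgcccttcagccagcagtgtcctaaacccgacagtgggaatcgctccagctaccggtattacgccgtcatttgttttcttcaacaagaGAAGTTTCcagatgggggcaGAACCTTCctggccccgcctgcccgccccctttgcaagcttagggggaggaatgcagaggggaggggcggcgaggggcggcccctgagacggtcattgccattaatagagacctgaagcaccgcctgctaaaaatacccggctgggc
Hspe1: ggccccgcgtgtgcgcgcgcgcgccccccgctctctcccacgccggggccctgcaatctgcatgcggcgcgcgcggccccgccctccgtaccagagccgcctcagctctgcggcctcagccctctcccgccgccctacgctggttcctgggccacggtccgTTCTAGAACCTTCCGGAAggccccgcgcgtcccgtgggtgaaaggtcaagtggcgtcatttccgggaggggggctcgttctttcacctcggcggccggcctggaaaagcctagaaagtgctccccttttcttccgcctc
Hspa1b: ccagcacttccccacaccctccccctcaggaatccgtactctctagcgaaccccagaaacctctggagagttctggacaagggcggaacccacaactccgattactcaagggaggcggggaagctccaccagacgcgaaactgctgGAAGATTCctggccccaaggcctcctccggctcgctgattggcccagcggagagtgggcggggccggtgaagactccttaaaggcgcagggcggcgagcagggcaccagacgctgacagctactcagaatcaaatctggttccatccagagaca
Hspa5: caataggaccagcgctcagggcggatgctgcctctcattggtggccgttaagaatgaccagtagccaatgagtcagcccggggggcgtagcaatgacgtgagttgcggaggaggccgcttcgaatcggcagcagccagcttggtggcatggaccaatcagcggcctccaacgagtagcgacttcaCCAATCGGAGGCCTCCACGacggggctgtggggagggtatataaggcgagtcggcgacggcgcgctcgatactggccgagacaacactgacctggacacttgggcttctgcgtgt
The matches began at positions -117 and -97 of Hspb1, at -89, -84 and -79 of Hspe1, where they overlap, at -104 of Hspa1b and at -65 of Hspa5, counted back from the gene start. A match is a run of letters and not a shown binding site.

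RefSeq promoter windows were matched for 60 of the 74 members, 77 windows in all, and both strands were searched. The motif GAANNTTC, which reads the same on both strands, occurred in 14 of these 60 genes (23.3%), against 9.04% of the 27025 genes with a window. TTCNNGAA occurred in 6 members (10%), against 9.60% of all genes, and the 2 motifs can overlap in the same stretch. A run of 3 alternating units (TTC, GAA and TTC, or GAA, TTC and GAA, each 2 bases from the next) occurred in Dnajb6, Hspd1, Hspe1 and Hsph1, which is 6.67% of the members, against 0.662% of all genes. The ER stress element, on either strand, occurred in Dnajc3, Hsp90b1 and Hspa5 (5.0%), against 0.137% of all genes. The 14 members without a window were Dnajc2, Dnajc5, Dnajc5b, Dnajc11, Dnajc12, Dnajc18, Dnajc22, Dnajc30, Hsp90aa1, Hsp90ab1, Hspa8, Hspa9, Hspa13 and Hspb2.

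In ipsilateral DRG, no measured chaperone gene was 2-fold higher or lower with 1 FPKM added to both libraries, and Hspb1 came closest at 142 FPKM ipsilaterally against 74.6 FPKM contralaterally. Levels are FPKM (fragments scaled to transcript length and to the mapped fragments of the library), and the log2 ratio is that of (ipsilateral + 1) over (contralateral + 1) FPKM, where the added 1 FPKM understates differences of low genes. Features that reached 1 FPKM in either library of a tissue were taken as measured, which held for 67 members in DRG, and a log2 ratio of size 1 or more was taken as 2-fold. Of these 67, 0 were 2-fold higher and 0 were 2-fold lower, where 3.04% of all 13137 measured features were higher and 0.784% were lower. With 0.1 FPKM added in place of 1, the low genes Dnajc5b and Dnajc22 passed, 1 higher and 1 lower. With the authors' deposited calls, 1 of 67 members tested was significantly higher (Hspb1) and 0 were lower, where 4.64% of all 13975 tested features were called higher and 1.9% lower. The log2 ratios of the 67 members ran from -0.71 (Dnajc22) to 0.92 (Hspb1), with a median of -0.048 beside 0.048 over all measured features. In 27 members the ratio was above 0 and in 40 below (21 and 46 after rescaling to equal medians), while 7367 of all 13137 measured features were above 0. In bulk RNA such as this, fewer cells of a type and less RNA per cell cannot be told apart.

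In ipsilateral dorsal cord, 4 members were at least 2-fold higher and 1 was at least 2-fold lower. The higher ones were Hspb11, Dnajb12, Hspe1 and Dnajb3, and the lower one was Dnajc5b, which was listed at 0 ipsilaterally. These are 6.35% and 1.59% of the 63 measured members, where 4.46% of all 13351 measured features were 2-fold higher and 1.64% were lower, so the shares are near the background. With 3 FPKM added neither Dnajc5b (-0.45) nor Dnajb3 (0.59) passed, nor did they when the medians of transcript GC classes were subtracted (-0.96 and 0.92), and a filter at 5 FPKM leaves both out. The authors' deposited table called 3 of 66 tested members significantly higher (Hspb11, Dnajb12 and Hspe1) and 1 lower (Hspa13), where 4.52% of all 14279 tested features were called higher and 1.55% lower. Log2 ratios ran from -1.08 (Dnajc5b) to 1.80 (Hspb11), with a median of 0.070 beside 0.018 over all measured features. The ratio was above 0 in 38 members and below 0 in 25 (35 and 28 after rescaling to equal medians), while 6893 of all 13351 measured features were above 0.

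Cell-type markers differed beside these results. Avil and Gad2 matched the tissue labels. Avil, a gene of sensory neurons, was at 270.0 FPKM ipsilaterally against 272 contralaterally (-0.012) in DRG and under 1 FPKM in cord. Gad2, a gene of inhibitory neurons, was at 38.6 FPKM ipsilaterally against 43.1 contralaterally (-0.15) in cord and under 1 FPKM in DRG. Other markers were shared between the tissues. In cord 5 of 10 sensory neuron markers reached 1 FPKM, among them Nefh at 193 FPKM ipsilaterally against 165 contralaterally (0.23). Of these 5, 4 were above 0 in cord, and P2rx3 was below (-0.20). Prph (1.12) and Calca (1.32) were 2-fold higher in ipsilateral cord, and the authors' deposited table calls neither. In DRG 2 of 9 dorsal cord neuron markers reached 1 FPKM, among them Slc17a6 at 95.6 FPKM ipsilaterally against 85.7 contralaterally. In DRG, where Hspb1 was higher, 9 of 10 sensory neuron markers were below 0, with a summed level of 2563 FPKM ipsilaterally against 3382 contralaterally. The exception was P2rx3, at 231 FPKM ipsilaterally against 134 contralaterally (0.78). All 8 myeloid markers were above 0 there, with a sum of 117 FPKM ipsilaterally against 44.3 contralaterally, and all 5 fibroblast markers, with 644 FPKM ipsilaterally against 331 contralaterally. So were all 6 measured Schwann cell markers (median 0.14) and all 5 endothelium markers (median 0.25). The smooth muscle and pericyte list had 4 of 5 measured markers above 0 in DRG, and the satellite glia list 2 of 5. In cord, where Hspb11, Dnajb12 and Hspe1 were higher, the same 8 myeloid markers were above 0, with a sum of 283 FPKM ipsilaterally against 54.7 contralaterally. Of 8 measured markers of dorsal cord neurons 3 were above 0 there, with a sum over the list of 306 FPKM ipsilaterally against 420.3 contralaterally. In the authors' deposited table Gad1 is called lower, at 45.8 FPKM ipsilaterally against 91.8 contralaterally (-0.99), and Lbx1 higher, at 13.5 FPKM ipsilaterally against 3.38 contralaterally (1.73). Astrocyte markers were above 0 in 3 of 5 cases, with a sum of 1733 FPKM ipsilaterally against 1402 contralaterally, among them Gfap at 881 FPKM ipsilaterally against 469 contralaterally (0.91). Oligodendrocyte markers were above 0 in 3 of 6 cases, with a sum of 3363 FPKM ipsilaterally against 4265 contralaterally. Of the satellite glia list, which cord glia also express, 4 of 5 genes were above 0 in cord, and the authors' deposited table calls Apoe, at 1356 FPKM ipsilaterally against 666 contralaterally (1.02), and Fabp7, at 215 FPKM ipsilaterally against 113 contralaterally (0.92). No myeloid marker was listed at 0 in any library, and the part of these cell types in the results was not tested. Of 8 skeletal muscle markers, 7 were under 1 FPKM in all 4 libraries, including Ckm and Des, and Acta1 was in DRG at 32.2 FPKM ipsilaterally against 25.9 contralaterally (0.30) and in cord at 12.5 FPKM ipsilaterally against 9.19 contralaterally (0.40). All 7 markers of nerve injury were 2-fold higher in ipsilateral DRG, among them the injury-induced transcription factor Atf3 at 389 FPKM ipsilaterally against 12.6 contralaterally (4.85), beside the 0.92 of Hspb1. In ipsilateral cord all 7 were above 0, and 4 were 2-fold higher and called in the authors' deposited table. These were Atf3, at 9.59 FPKM ipsilaterally against 1.05 contralaterally (2.37), Sprr1a (2.94), Gal (1.62) and Npy (1.72).

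**Figure D1:**
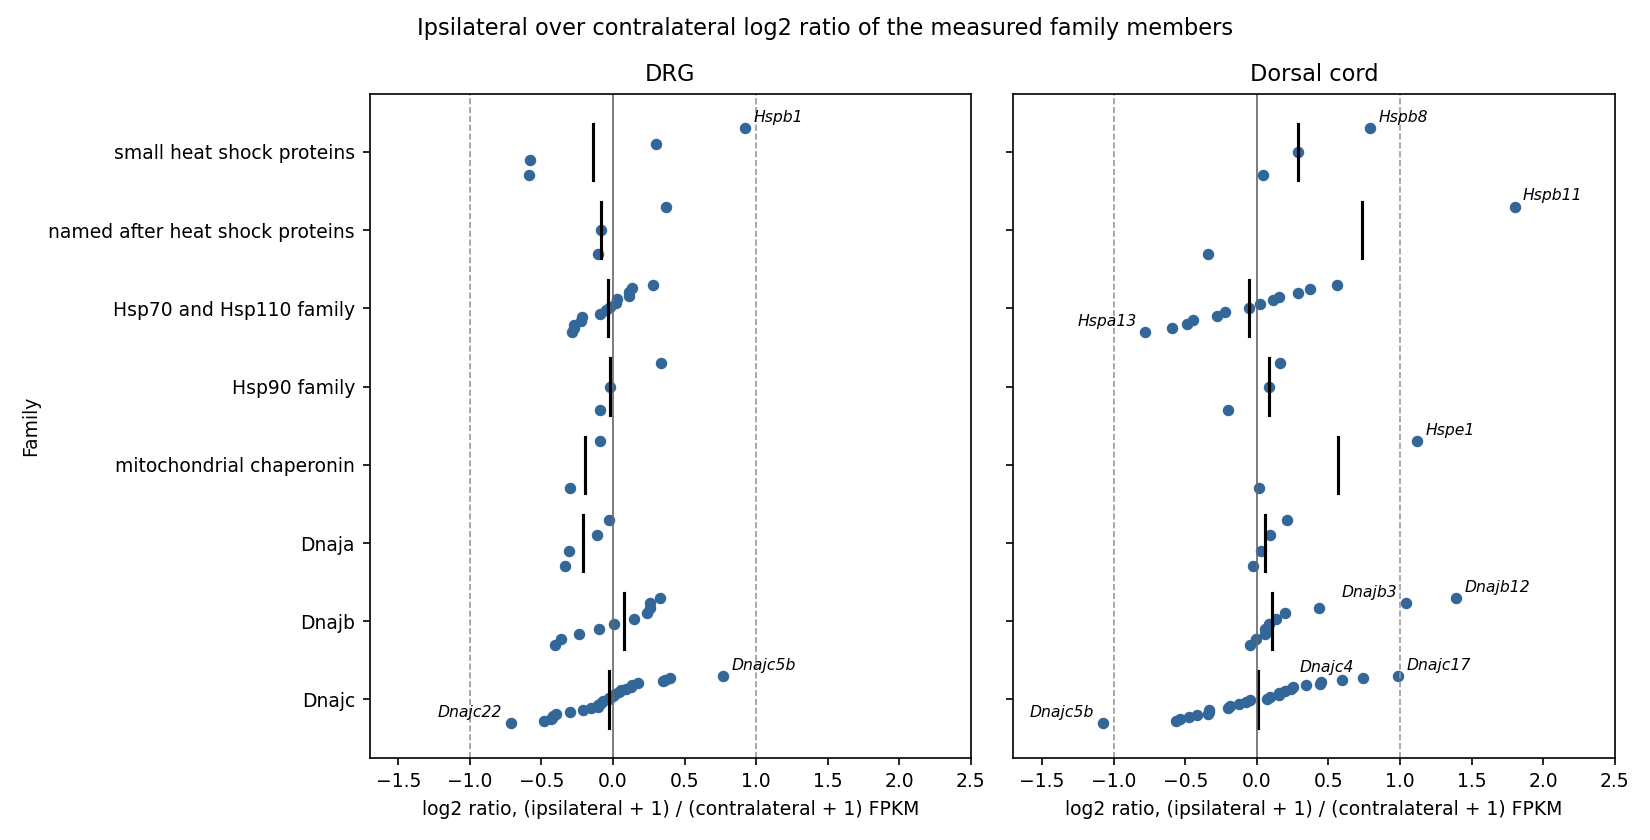
Log2 ratio of ipsilateral over contralateral FPKM (1 FPKM added to each) for the 67 members measured in DRG and the 63 measured in dorsal cord, by family. Points are genes, black bars are family medians and dashed lines mark 2-fold; in DRG every point lies inside these lines, and in cord 5 points lie outside them.

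**Figure D2:**
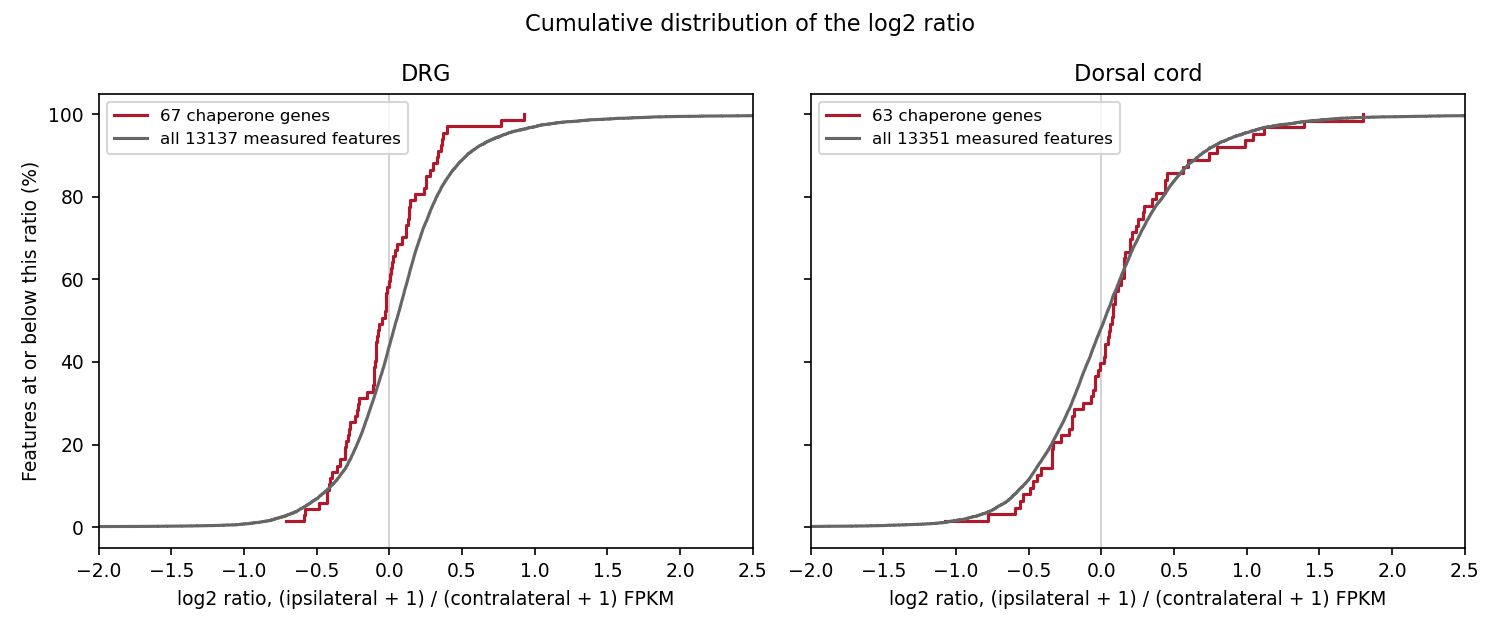
Cumulative share of features, in percent, at or below each log2 ratio, for the measured chaperone genes (red) and all measured features (grey) in each tissue. In DRG the red curve runs from -0.71 to 0.92, and in cord it runs from -1.08 to 1.80.

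The absolute number of reads is not given, but the tables allow relative depth and error to be read. For features whose standard error, as the authors' deposited table implies it, is that of a single read in each library, 1 read was worth 0.639 times as much FPKM in ipsilateral as in contralateral DRG (50 of 50 such features), so the ipsilateral library was the deeper. In cord 1 read was worth 1.35 times as much ipsilaterally (20 of 20 features), so there the ipsilateral library was the shallower. The summed FPKM was 442298 in ipsilateral and 431795 in contralateral DRG, and 442196 in ipsilateral and 425636 in contralateral cord. Intervals given below are 95% intervals of the plain FPKM fold from the standard error that the authors' deposited table implies, and they leave out variation between animals. That standard error had a median of 0.27 on the log2 scale over the 67 measured members in DRG and of 0.28 over 62 in cord. In DRG the interval stayed within 2-fold in both directions for 56 of 67 members, and in cord for 37 of 62. It held a fold of 1 for 64 members in DRG and for 54 in cord. The same counts over all measured features were not computed, so these are not a result about the members.

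Among the small heat shock proteins within the name rule, Hspb1 and Hspb8 were the abundant ones in DRG. Hspb1 (mm9 chromosome 5, 136363788 to 136365433) was at 142 FPKM in ipsilateral and 74.6 FPKM in contralateral DRG, a fold of 1.91 with an interval of 1.33 to 2.74 and q = 0.0120 in the authors' deposited table. On the log2 scale with 1 FPKM added the ratio was 0.92, short of 2-fold. In cord Hspb1 was at 3.91 FPKM ipsilaterally against 3.02 FPKM contralaterally (0.29), with an interval of 0.522 to 3.22 in the authors' deposited table, which holds both 1 and the DRG fold. Hspb8, which works with the exchange factor Bag3 to send misfolded proteins to autophagy, was at 170.3 FPKM ipsilaterally against 138 FPKM contralaterally in DRG (0.30). In cord it was at 13.8 FPKM ipsilaterally against 7.54 FPKM contralaterally (0.79), with an interval of 1.10 to 3.04 and q = 0.145 in the authors' deposited table, which does not call it. For both genes the contralateral level in DRG was far above that in cord, 24.7 times for Hspb1 and 18.3 times for Hspb8, although the tables of the tissues were normalised separately and such ratios are approximate.

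The other small heat shock proteins within the name rule, known from muscle or, for Hspb9, from testis, were low. Hspb6 was at 5.04 FPKM in ipsilateral DRG against 8.10 in contralateral DRG, and 5.70 in ipsilateral cord against 5.50 in contralateral cord (log2 ratios -0.59 and 0.045). Hspb2 was at 1.84 FPKM ipsilaterally against 3.25 FPKM contralaterally in DRG (-0.58), and in cord at 0.772 FPKM ipsilaterally while it was listed at 0 contralaterally. Both were lower in ipsilateral DRG, with intervals from the authors' deposited table of 0.368 to 1.06 and 0.241 to 1.34 that hold a fold of 1. Hspb3, Hspb7 and Hspb9 stayed under 1 FPKM in all 4 libraries, with a highest value of 0.284 FPKM. Cryab, a small heat shock protein of lens, muscle and glia whose symbol falls outside the name rule, was in DRG at 113 FPKM ipsilaterally against 80.8 contralaterally (0.47). In cord Cryab was at 127 FPKM ipsilaterally against 75.6 contralaterally (0.74), and the authors' deposited table calls neither difference (q = 0.352 and 0.0522).

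Hsp70 and Hsp110 genes were close between the sides of the DRG. All 14 were measured there, with log2 ratios from -0.28 (Hsph1) to 0.28 (Hspa9) and a median of -0.033. Hspa8, the constitutive Hsp70 that also strips clathrin from vesicles, was at 1685 FPKM in ipsilateral DRG against 1705 in contralateral DRG, and 1377 in ipsilateral cord against 1126 in contralateral cord (log2 ratios -0.018 and 0.29). Its DRG fold of 0.988 had an interval of 0.646 to 1.51 in the authors' deposited table, which leaves out a 2-fold difference in either direction. Hspa5 (BiP), the Hsp70 of the ER lumen, was at 228 FPKM in ipsilateral DRG against 211 in contralateral DRG, and 174 in ipsilateral cord against 171 in contralateral cord (log2 ratios 0.11 and 0.025). Hspa9 (mortalin), the mitochondrial Hsp70, was at 152 FPKM in ipsilateral DRG against 125 in contralateral DRG, and 137 in ipsilateral cord against 127 in contralateral cord (log2 ratios 0.28 and 0.12). None of these 3 chaperones, 1 for each compartment, was called in either of the authors' deposited tables.

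The stress-inducible Hsp70 genes were low in every library. Hspa1a was at 1.53 FPKM in ipsilateral DRG against 2.05 in contralateral DRG, and 1.10 in ipsilateral cord against 1.44 in contralateral cord, and Hspa1b at 1.86 FPKM in ipsilateral DRG against 1.81 in contralateral DRG, and 0.776 in ipsilateral cord against 0.566 in contralateral cord. Their log2 ratios were -0.27 and 0.027 in DRG and, for the measured Hspa1a, -0.22 in cord. These genes are near-identical copies, so how reads were divided between them is uncertain, and both were below 2.1 FPKM throughout. Hspa1l, their neighbour with a role in testis, was at 1.51 FPKM in ipsilateral DRG against 1.92 in contralateral DRG, and 2.22 in ipsilateral cord against 3.86 in contralateral cord (log2 ratios -0.22 and -0.59). The interval of Hspa1a in DRG, 0.412 to 1.35 in the authors' deposited table, shows the precision at this level.

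In cord the log2 ratios of the 13 measured Hsp70 and Hsp110 genes ran from -0.78 (Hspa13) to 0.56 (Hspa12b). Among the Hsp110 genes, Hsph1 was at 99.1 FPKM in ipsilateral DRG against 121 in contralateral DRG, and 135 in ipsilateral cord against 140.3 in contralateral cord (log2 ratios -0.28 and -0.057), Hspa4 had log2 ratios of -0.048 and 0.15, and Hspa4l had -0.21 and -0.44. Hspa12a, an atypical member of the brain, was at 169 FPKM in ipsilateral DRG against 205 in contralateral DRG, and 64.5 in ipsilateral cord against 78.6 in contralateral cord (log2 ratios -0.28 and -0.28). For Hsph1 and Hspa12a the intervals from the authors' deposited tables hold a fold of 1 in both tissues, and the cord ratio of Hsph1 was above 0 once the median of its class of transcript GC content was subtracted (0.0084). Hspa13 (Stch), an Hsp70 with an ATPase domain only that resides in microsomes, was at 13.2 FPKM ipsilaterally against 23.4 FPKM contralaterally in cord (-0.78). The fold of 0.564 had an interval of 0.416 to 0.763 and q = 0.00861, so Hspa13 was the 1 member that the authors' deposited table calls lower, without reaching 2-fold. In DRG it was at 13.1 FPKM ipsilaterally against 12.1 FPKM contralaterally (0.11), with an interval of 0.829 to 1.43 in the authors' deposited table.

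Of the remaining Hsp70 genes, Hspa14, a ribosome-associated member, had log2 ratios of 0.021 in DRG and -0.49 in cord. Hspa2, best known from the testis, had 0.14 and 0.37, and the endothelial Hspa12b had -0.092 and 0.56. The highest of these levels was 31.2 FPKM, for Hspa14 in contralateral cord, and the authors' deposited tables call none of the 3 genes. All 3 cord differences were under 1 on the log2 scale.

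Hsp90 genes were among the most abundant members, with log2 ratios from -0.20 to 0.34 over both tissues. Hsp90ab1, the constitutive cytosolic form, was at 1971 FPKM in ipsilateral DRG against 2004 in contralateral DRG, and 1307 in ipsilateral cord against 1235 in contralateral cord (log2 ratios -0.024 and 0.082). The inducible Hsp90aa1 was at 738 FPKM in ipsilateral DRG against 584 in contralateral DRG, and 399 in ipsilateral cord against 459 in contralateral cord (log2 ratios 0.34 and -0.20), higher ipsilaterally in DRG and lower in cord. Its intervals in the authors' deposited tables were 0.848 to 1.88 in DRG and 0.575 to 1.31 in cord, and both hold a fold of 1. Hsp90b1 (Grp94), the form of the ER, was at 192 FPKM in ipsilateral DRG against 205 in contralateral DRG, and 261 in ipsilateral cord against 234 in contralateral cord (log2 ratios -0.092 and 0.16). Hsp90ab1, Hspa8 and Hsp90aa1 together made up 60.4% of the summed FPKM of the members in ipsilateral and 59.7% in contralateral DRG, and 52.2% in ipsilateral and 51.1% in contralateral cord. The members' sum was 7280.3 FPKM in ipsilateral and 7190.2 FPKM in contralateral DRG, and 5901 FPKM in ipsilateral and 5514 FPKM in contralateral cord.

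**Figure D3:**
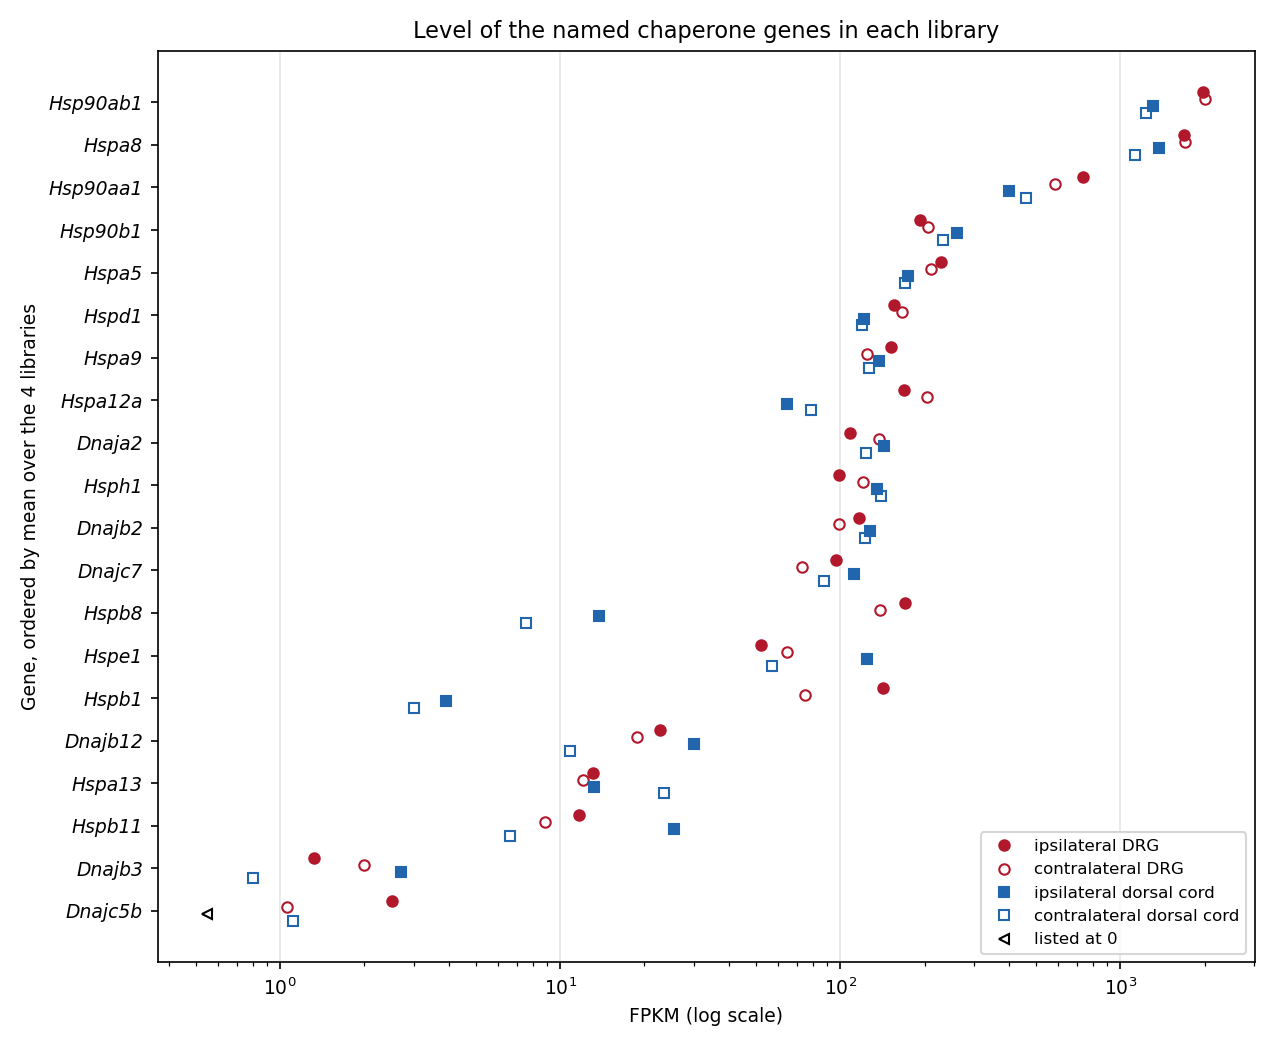
FPKM (log axis) of the 20 named members in ipsilateral (filled) and contralateral (open) libraries of DRG (red circles) and dorsal cord (blue squares), 1 library each, ordered by mean level. Filled and open symbols lie close together for the abundant genes, while those of Hspe1, Dnajb12, Hspb11 and Dnajb3 stand apart in cord and those of Hspb1 in DRG.

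The 2 genes of the mitochondrial chaperonin parted in dorsal cord. Hspe1 (mm9 chromosome 1, 55144991 to 55148161), which encodes the lid of the chaperonin, was at 125 FPKM in ipsilateral and 57.0 FPKM in contralateral cord (1.12). Its fold of 2.19 had an interval of 1.49 to 3.22 and q = 0.00380 in the authors' deposited table. Hspd1, which encodes the barrel, was at 121 FPKM ipsilaterally against 120.1 FPKM contralaterally in cord (0.017), with an interval of 0.721 to 1.42 in the authors' deposited table. These intervals do not overlap, so the genes differed from each other within these libraries by more than that error. In DRG Hspe1 was at 52.2 FPKM ipsilaterally against 64.6 FPKM contralaterally (-0.30) and Hspd1 at 156 FPKM ipsilaterally against 166 FPKM contralaterally (-0.092).

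Hspe1 and Hspd1 lie on opposite strands, and RefSeq gives Hspd1 2 starts on GRCm38.p6, 1 of them 216 bases upstream of the Hspe1 start and the other 95 bases downstream of it. The window printed for Hspe1 shares 285 of its 300 bases with the window of the upstream Hspd1 start and 4 with that of the downstream start. The matches marked in capitals lie in the windows of Hspe1 and of the upstream Hspd1 start. GENCODE names 6 further copies of Hspe1 and 5 of Hspd1 elsewhere in the genome, and no source used here says how the authors' counting divided reads among such copies. The Hspe1 value is uncertain for that reason.

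DnaJ proteins of class A, the closest relatives of bacterial DnaJ, were all slightly below 0 in DRG. Dnaja2 was at 108 FPKM in ipsilateral DRG against 137 in contralateral DRG, and 144 in ipsilateral cord against 124 in contralateral cord (log2 ratios -0.34 and 0.21) and Dnaja1 at 63.0 FPKM in ipsilateral DRG against 68.1 in contralateral DRG, and 41.8 in ipsilateral cord against 41.1 in contralateral cord (log2 ratios -0.11 and 0.026). The mitochondrial Dnaja3 had log2 ratios of -0.030 in DRG and -0.026 in cord, and Dnaja4 had -0.31 and 0.093. The 4 genes thus stayed within -0.34 and 0.21 over both tissues, and the authors' deposited tables call none of them.

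Of the class B genes, Dnajb12 was called in cord by the authors. Dnajb12 (mm9 chromosome 10, 59342338 to 59360764), an ER membrane protein that works in the disposal of misfolded membrane proteins, was at 30.1 FPKM in ipsilateral and 10.9 FPKM in contralateral cord (1.39). The fold of 2.78 had an interval of 1.79 to 4.31 and q = 5.62e-04 in the authors' deposited table. In DRG it was at 22.7 FPKM ipsilaterally against 18.9 FPKM contralaterally (0.26), with an interval of 0.816 to 1.78 in the authors' deposited table. Its relative Dnajb14, which resides in the same membrane, was at 40.7 FPKM in ipsilateral DRG against 54.3 in contralateral DRG, and 42.9 in ipsilateral cord against 43.1 in contralateral cord (log2 ratios -0.41 and -0.0075). In cord the interval of Dnajb14 in the authors' deposited table was 0.695 to 1.42, below that of Dnajb12, and in DRG the ipsilateral level was higher for Dnajb12 and lower for Dnajb14.

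Dnajb3 in cord was at 2.70 FPKM ipsilaterally against 0.798 FPKM contralaterally (1.04), a low level with an interval of 1.07 to 10.7 and q = 0.206 in the authors' deposited table. Its listed locus overlaps 8 Ugt1a features, so its value is uncertain. In DRG Dnajb3 was at 1.33 FPKM ipsilaterally against 1.99 FPKM contralaterally (-0.36), with an interval of 0.290 to 1.54 that holds a fold of 1. The ratios thus had opposite signs in the tissues, and no call was made in either of the authors' deposited tables.

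The other measured class B genes had log2 ratios of 0.44 or less in size. Dnajb2 (HSJ1), a neuronal form that steers clients to the proteasome, was at 117 FPKM in ipsilateral DRG against 99.0 in contralateral DRG, and 127 in ipsilateral cord against 123 in contralateral cord (log2 ratios 0.24 and 0.056). Dnajb6, a suppressor of polyglutamine aggregation, was at 74.2 FPKM in ipsilateral DRG against 58.8 in contralateral DRG, and 86.7 in ipsilateral cord against 75.5 in contralateral cord (log2 ratios 0.33 and 0.20). Dnajb1, the classic heat-inducible Hsp40, was at 15.5 FPKM in ipsilateral DRG against 18.5 in contralateral DRG, and 14.0 in ipsilateral cord against 14.4 in contralateral cord (log2 ratios -0.23 and -0.045). All 3 had intervals in the authors' deposited tables that hold a fold of 1 in both tissues. The ER forms Dnajb9 and Dnajb11 had log2 ratios of 0.26 and 0.0072 in DRG and 0.14 and 0.082 in cord. Dnajb4 had -0.10 in DRG and 0.054 in cord, and Dnajb5 had 0.15 and 0.44. Dnajb7 and the testis forms Dnajb8 and Dnajb13 stayed under 1 FPKM in all 4 libraries.

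**Figure D4:**
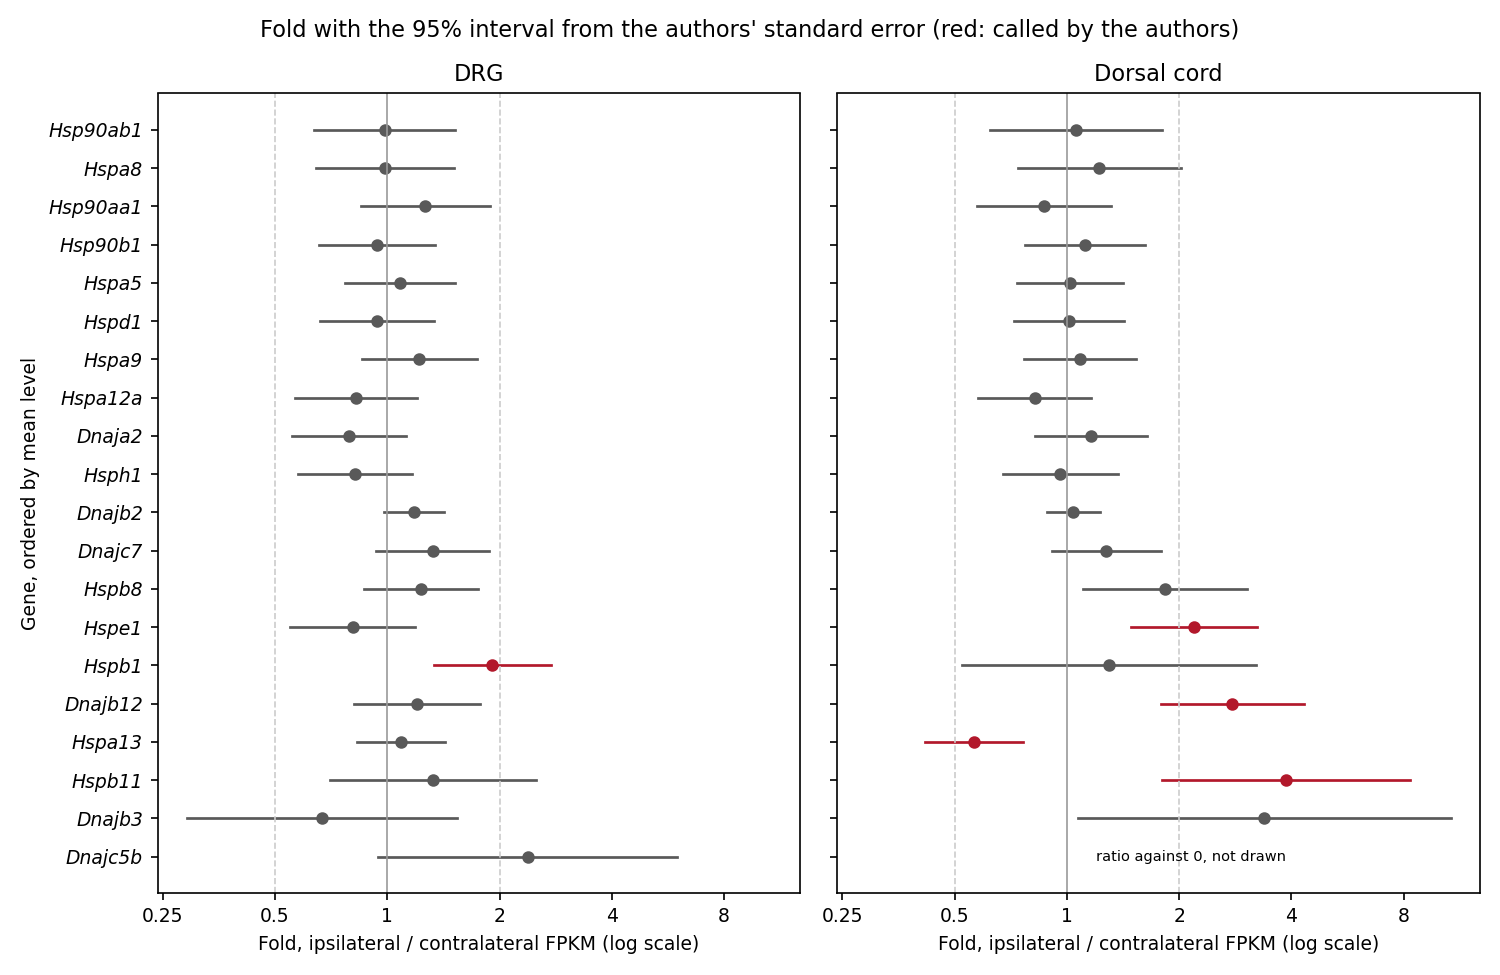
Fold of ipsilateral over contralateral FPKM (log axis) with its 95% interval from the authors' standard error for the 20 named members in DRG and dorsal cord; red marks genes the authors call, and dashed lines mark 2-fold, with no point for Dnajc5b in cord, where a library is listed at 0. In DRG the interval of Hspb1 alone among these genes leaves out 1, and in cord those of Hspb11, Dnajb12, Dnajb3, Hspe1, Hspb8 and Hspa13 do.

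Class C proteins share only the J domain and serve particular sites in the cell. Of 28, 27 were measured in DRG and 26 in cord, with medians of -0.026 and 0.011 and no call in either of the authors' deposited tables. At the synapse, Dnajc5 (cysteine string protein), which keeps the vesicle fusion machinery folded, was at 71.1 FPKM in ipsilateral DRG against 79.1 in contralateral DRG, and 94.0 in ipsilateral cord against 108 in contralateral cord (log2 ratios -0.15 and -0.20). Dnajc6 (auxilin), the partner of Hspa8 in uncoating clathrin vesicles, was at 30.7 FPKM in ipsilateral DRG against 41.4 in contralateral DRG, and 53.2 in ipsilateral cord against 46.2 in contralateral cord (log2 ratios -0.42 and 0.20). Its DRG fold of 0.743 had an interval of 0.585 to 0.942, which leaves out 1, but q was 0.137 in the authors' deposited table. Dnajc13, a J protein of endosomes, was at 30.4 FPKM in ipsilateral DRG against 32.7 in contralateral DRG, and 13.4 in ipsilateral cord against 11.2 in contralateral cord (log2 ratios -0.11 and 0.24). The synaptic and endosomal forms were thus all at or below 0 in DRG.

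Dnajc7, which links Hsp70 with Hsp90, was the highest class C gene on average, at 96.4 FPKM in ipsilateral DRG against 72.8 in contralateral DRG, and 112 in ipsilateral cord against 87.7 in contralateral cord (log2 ratios 0.40 and 0.35). Its intervals in the authors' deposited tables, 0.933 to 1.88 in DRG and 0.911 to 1.78 in cord, hold a fold of 1. Dnajc8, a splicing-associated form, was at 57.4 FPKM in ipsilateral DRG against 66.3 in contralateral DRG, and 114 in ipsilateral cord against 84.0 in contralateral cord (log2 ratios -0.21 and 0.44). Both were abundant in the cord, and only for Dnajc8 did the tissues differ in direction.

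The ER members Dnajc1, Dnajc3, Dnajc10 and Dnajc18 had log2 ratios of 0.35, 0.039, 0.13 and -0.026 in DRG. In cord they had 0.093, -0.34, -0.47 and 0.070 in the same order. Dnajc11, Dnajc15, Dnajc19 and Dnajc30, which are not a full list of mitochondrial J proteins, had -0.080, -0.026, -0.43 and 0.054 in DRG. In cord they had -0.19, -0.54, -0.56 and -0.42. These 4 were lower ipsilaterally in cord, and no interval among them in the authors' deposited table leaves out a fold of 1. They do not stand for class C, where 13 of the 26 genes measured in cord were above 0 and 13 below. Those above 0 included Dnajc4 (0.74) and Dnajc28 (0.59). Of other mitochondrial members, also not a full list, Hspe1 (1.12), Hspa9 (0.12) and Hspd1 (0.017) were above 0 in cord and Dnaja3 (-0.026) was below. The listed locus of Dnajc19 overlaps that of Fxr1.

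Dnajc2, Dnajc21, Dnajc9 and Dnajc24, which act in protein synthesis, ribosome assembly, histone handling and diphthamide synthesis, had log2 ratios of 0.36, -0.40, 0.089 and 0.013 in DRG. The cord values were 0.16, -0.075, -0.13 and 0.45. Dnajc17 in cord was at 6.54 FPKM ipsilaterally against 2.80 FPKM contralaterally (0.99), just under the 2-fold line, with an interval of 1.03 to 5.30 and q = 0.219 in the authors' deposited table. Its listed locus overlaps 2 other features, Gm14137 and Zfyve19, and in DRG it was at 4.61 FPKM ipsilaterally against 6.83 FPKM contralaterally (-0.48).

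Dnajc12, a co-chaperone of the aromatic amino acid hydroxylases, had -0.30 in DRG and -0.34 in cord, and Dnajc27, a Rab-like GTPase with a J domain, had -0.43 and -0.34. Dnajc27 was at 10.5 FPKM in ipsilateral DRG against 14.5 in contralateral DRG, and 45.8 in ipsilateral cord against 58.1 in contralateral cord, and its contralateral cord level was 4.01 times its contralateral DRG level. Dnajc14 had -0.071 and -0.047, and Dnajc16 had 0.18 and 0.15. Dnajc4 had -0.0034 and 0.74, Dnajc25 had 0.13 and 0.25, and Dnajc28 had -0.11 and 0.59. For Dnajc28 the cord interval of 1.06 to 2.53 leaves out 1, with q = 0.172 in the authors' deposited table.

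The lowest class C genes carried the extremes of their class in DRG. Dnajc22 was at 0.349 FPKM ipsilaterally against 1.21 FPKM contralaterally in DRG (-0.71), with an interval of 0.107 to 0.774 and q = 0.134 in the authors' deposited table, and was listed at 0 in both cord libraries. Dnajc5b, a form of cysteine string protein known from testis, was at 2.51 FPKM ipsilaterally against 1.05 FPKM contralaterally in DRG (0.77), with an interval of 0.944 to 5.99 in the authors' deposited table. The ipsilateral cord library lists it at 0 and the contralateral one at 1.11 FPKM. The authors' deposited table gives q = 0.108 for this difference, and a listed 0 can be a failed estimate. Dnajc5g was listed at 0 in all 4 libraries.

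Among the members that carry the name of heat shock proteins without belonging to a chaperone family, Hspb11 had the largest ratio of all in cord. Hspb11 (mm9 chromosome 4, 106926538 to 106952493) encodes IFT25, a subunit of the transport system inside cilia, and was at 25.5 FPKM in ipsilateral and 6.62 FPKM in contralateral cord (1.80). The fold of 3.86 had an interval of 1.80 to 8.29 and q = 0.0166 in the authors' deposited table. In DRG it was at 11.7 FPKM ipsilaterally against 8.80 FPKM contralaterally (0.37), with an interval of 0.700 to 2.51 in the authors' deposited table. Hspbp1, a nucleotide exchange factor of Hsp70, was at 12.6 FPKM in ipsilateral DRG against 13.4 in contralateral DRG, and 8.64 in ipsilateral cord against 11.2 in contralateral cord (log2 ratios -0.083 and -0.34). Hspbap1, a protein that binds Hspb1, was at 1.67 FPKM ipsilaterally against 1.87 FPKM contralaterally in DRG (-0.10) and under 1 FPKM in both cord libraries. Of these 3 genes, only Hspb11 in cord was past 2-fold or called in the authors' deposited tables.

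Between the tissues, 63 members were measured in both, 4 only in DRG and 7 in neither. Of the 63, 18 were above 0 in both tissues, 17 below 0 in both and 28 had opposite signs. The same split over all features was not computed, so these counts are not a result about the members. Among these 63, Hspb1 and Hspb8 were the 2 members whose contralateral level was at least 5 times higher in DRG than in cord. The 5 members past 2-fold in cord had DRG log2 ratios from -0.36 (Dnajb3) to 0.77 (Dnajc5b), none past 2-fold. With 1 library per group, whether a ratio differs between the tissues was not tested.

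**Figure D5:**
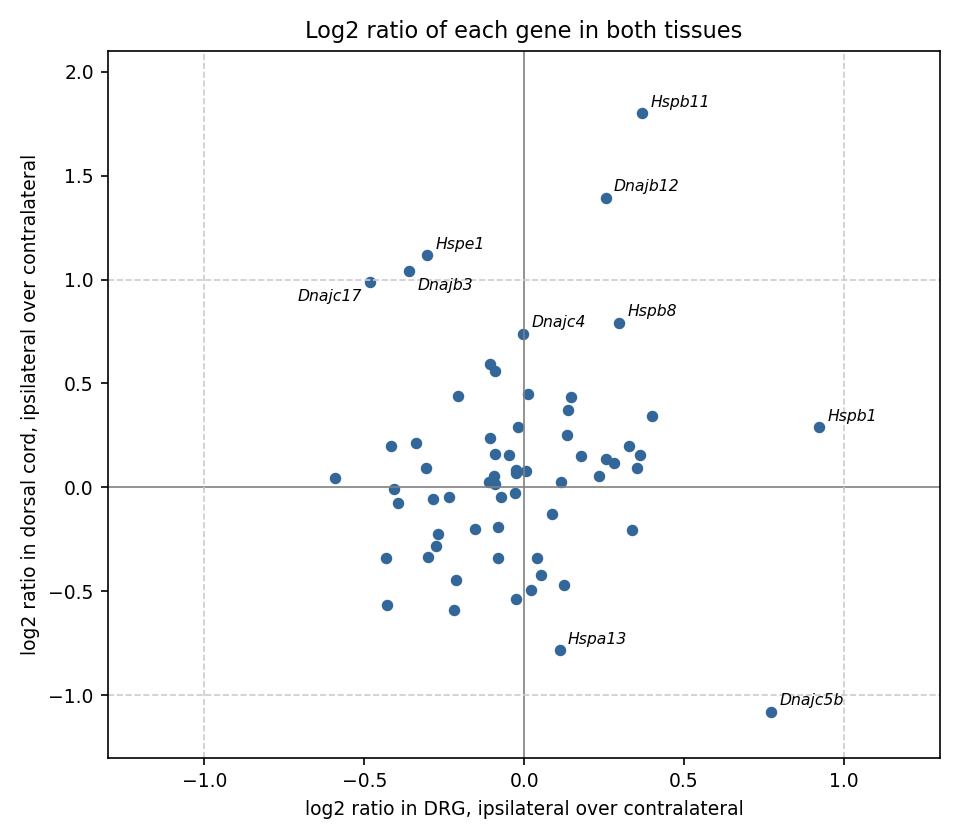
Log2 ratio of ipsilateral over contralateral FPKM in DRG (horizontal) and in dorsal cord (vertical) for the 63 members measured in both tissues; points are genes and dashed lines mark 2-fold. Hspb1 lies farthest right, Hspb11 and Dnajb12 lie highest, and Dnajc5b is the only point under -1 on either axis.

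The heat shock motif is set beside the ratios here as a description. In DRG the 12 measured members with GAANNTTC had a median log2 ratio of -0.19, from -0.59 (Hspb6) to 0.92 (Hspb1), with 4 of 12 above 0, and the 41 measured members without it had a median of -0.048. In cord the 11 with the motif had a median of 0.045, from -0.34 to 1.12 (Hspe1), and the 40 without it a median of 0.11. Hspe1, Hspd1, Hsph1 and Dnajb6, which hold a run of 3 units, had DRG ratios between -0.30 and 0.33. The 3 members with the ER element, Hspa5, Hsp90b1 and Dnajc3, lay between -0.092 and 0.11 in DRG and between -0.34 and 0.16 in cord. These medians are descriptions of these libraries and were not tested.

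Partner genes of the chaperones were also close between sides. Of 79 partner genes on 6 lists, 74 were measured in DRG and 73 in cord, after leaving out Hspbp1, which is itself a member, and these lists were chosen with earlier results of the data known. In DRG 0 were 2-fold higher and 0 lower, with a median log2 ratio of 0.022 (-0.048 after rescaling to equal medians), and in cord 1 was 2-fold higher and 0 lower, with a median of 0.13. The authors' deposited tables call 1 partner higher in DRG and 2 higher in cord, and none lower. Of all measured features, 3.04% were 2-fold higher and 0.784% lower in DRG, and 4.46% and 1.64% in cord. Of all tested features, 4.64% were called higher and 1.9% lower in DRG, and 4.52% and 1.55% in cord. The medians of the partner genes stand beside 0.048 and 0.018 over all measured features. Counts above 0 in the lists below stand beside 7367 of all 13137 measured features in DRG and 6893 of 13351 in cord.

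Of the heat shock factors, Hsf1, the main activator of the heat shock response, was in DRG at 4.97 FPKM ipsilaterally against 6.39 contralaterally (-0.31) and in cord at 5.97 FPKM ipsilaterally against 4.05 contralaterally (0.46). Hsf4 was in DRG at 6.15 FPKM ipsilaterally against 9.45 contralaterally (-0.55) and in cord at 13.3 FPKM ipsilaterally against 10.1 contralaterally (0.37). Neither gene was called in the authors' deposited tables, and Hsf2 and Hsbp1, a binding protein of these factors, had smaller ratios. Of 22 genes listed as Hsp90 co-chaperones, 6 were above 0 in DRG, with a median of -0.11 (3 and -0.18 after rescaling to equal medians). The list counts Trap1 (-0.25 in DRG and -0.19 in cord), which is itself a mitochondrial Hsp90 and not a co-chaperone. In cord 13 were above 0, with a median of 0.27 (14 and 0.15 with the medians of transcript GC classes subtracted). Fkbp4, a steroid receptor co-chaperone, had the lowest ratio in DRG, at 152 FPKM ipsilaterally against 231 contralaterally (-0.60), followed by Cdc37l1 at 34.0 FPKM ipsilaterally against 42.8 contralaterally (-0.33). In cord the kinase co-chaperone Cdc37 was at 82.7 FPKM ipsilaterally against 46.7 contralaterally (0.81), where q was 0.0237 in the authors' deposited table, while its relative Cdc37l1 was at 55.3 FPKM ipsilaterally against 84.5 contralaterally (-0.60).

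Of 15 measured Hsp70 exchange factors and co-chaperones, 8 were above 0 in DRG and 10 in cord. In DRG the iron-sulfur cluster co-chaperone Hscb was at 5.20 FPKM ipsilaterally against 10.04 contralaterally (-0.83) and Bag2, an inhibitor of client ubiquitination, at 5.72 FPKM ipsilaterally against 9.57 contralaterally (-0.65). In cord Bag2 was at 6.45 FPKM ipsilaterally against 2.42 contralaterally (1.12), the 1 partner past 2-fold there, with q = 0.0660 in the authors' deposited table. Bag1, which releases clients from Hsp70, was in cord at 143 FPKM ipsilaterally against 79.0 contralaterally (0.85), where q was 0.0186 in the authors' deposited table. Bag2 thus had log2 ratios of opposite sign in the tissues, as had 28 of the 63 members measured in both, a split not computed over all features.

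The TRiC chaperonin and prefoldin, which fold actin and tubulin, had 10 of 14 measured genes above 0 in DRG (median 0.061, and -0.0090 with 7 above 0 after rescaling to equal medians) and 8 of 13 in cord (median 0.062). Their most different genes were Cct6b, a testis subunit, in DRG at 0.404 FPKM ipsilaterally against 1.36 contralaterally (-0.75), and Pfdn4, in cord at 31.0 FPKM ipsilaterally against 19.2 contralaterally (0.66). Pfdn4 was in DRG at 37.8 FPKM ipsilaterally against 49.5 contralaterally (-0.38), and Vbp1, another prefoldin subunit, was in cord at 34.8 FPKM ipsilaterally against 53.2 contralaterally (-0.60). None of these was called in the authors' deposited tables.

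The list of ER folding genes also holds transcription factors such as Xbp1 and genes of protein degradation such as Syvn1. In DRG 17 of its 18 genes were above 0, with a median of 0.15 (12 of 18 and 0.080 when the libraries were rescaled to equal medians). Of all 13137 measured features, 7367 were above 0 there. In cord 9 of 18 were above 0, with a median of 0.013 (-0.018 after that rescaling). Xbp1, a transcription factor of the unfolded protein response, was in DRG at 36.3 FPKM ipsilaterally against 20.4 contralaterally (0.80), with q = 0.0442, and was the 1 partner that the authors' deposited table calls there. Ddit3 (CHOP), another factor of that response, was in DRG at 52.2 FPKM ipsilaterally against 35.95 contralaterally (0.53). In cord the most different genes were Pdia6, a disulfide isomerase, at 81.4 FPKM ipsilaterally against 54.4 contralaterally (0.57), and the ubiquitin ligase gene Syvn1 at 10.8 FPKM ipsilaterally against 7.02 contralaterally (0.56).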

How the data were processed

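RNA sequencing of 4 libraries was analysed, 1 per group. The submitters' processing notes name Cuffdiff 1.3.0, TopHat 1.4.0 and the mm9 build; for annotation, filters and strand setting nothing is stated there. The deposited FPKM are the authors' levels per library. The p-values and q-values, the deposited fold change and the test statistic (score) compare 1 library with 1 library and are the authors'. The ratio of log2 fold change to test statistic gave the standard error behind each interval.

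From the FPKM, log2 ratios were computed with a pseudocount of 1 FPKM and a filter at 1 FPKM in either library (Python 3.11.15, pandas 2.3.3, numpy 2.4.6); no p-value was computed. The code was tested on simulated data. Gene symbols were used as deposited. No column of per-sample values was left out (0).

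Members and lists were chosen with earlier results of these data known. Genes named with full values were members past 2-fold or called by the authors, the 10 most abundant and the leader of each family; the other members are given in brief so that all are accounted for, and partners named were up to 2 per list and tissue with the largest ratios. Marker genes named, and full values of members such as Dnajc17, were chosen after their values were seen. Promoter windows came from RefSeq on GRCm38.p6, while loci are mm9 as the files give them.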

Additional observations from a re-analysis of the deposited data

Results flagged for a closer look

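In 10 of the 20 named members the ipsilateral library was higher in 1 tissue and lower in the other, and the difference between tissues was not tested. The share of all features with opposite signs was not computed. Some of the ratios were near 0, such as -0.018 for Hspa8 in DRG and 0.017 for Hspd1 in cord. Given as the log2 ratio in DRG minus that in cord, the gap was 1.85 for Dnajc5b, whose cord ratio rests on a library listed at 0. It was -1.42 for Hspe1 and -1.40 for Dnajb3. It was 0.89 for Hspa13, -0.55 for Dnaja2 and 0.54 for Hsp90aa1. It was -0.31 for Hspa8, -0.25 for Hsp90b1, -0.11 for Hsp90ab1 and -0.11 for Hspd1.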

How the results depend on the processing

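No paired analysis was possible because each group has 1 library, and no library could be left out. The counts of members past 2-fold changed with the treatment of low values: at a pseudocount of 0.1 FPKM, 1 was higher and 1 lower in DRG (0 and 0 at 1 FPKM). In cord the count lower was 0 at a pseudocount of 3 FPKM, 0 at a filter of 5 FPKM and 0 after the median of each of 20 transcript GC classes was subtracted, an alternative chosen after seeing the data, against 1. The count higher in cord stayed between 3 and 5 over all settings. Requiring both the authors' call and 2-fold left 0 members in DRG, where Hspb1 is under 2-fold, and 3 in cord. The median member ratio ran from -0.12 to -0.026 in DRG and from 0.038 to 0.085 in cord. Of the recomputed ratios of named members, 198 moved by less than the standard error behind them, taken for Dnajc5b in cord, which has none, as that of a single read in each library; the other 2 were Dnajc5b in cord (-3.60 at 0.1 FPKM) and Dnajb2 in cord (-0.14 after the GC correction, against 0.056). Rescaling to equal medians turned the DRG median of the partner genes to -0.048, against 0.022, and the cord ratios of Hspa5 to -0.0072 and Hspd1 to -0.015. Depth limits members under 5 FPKM, whose intervals often span more than 2-fold, and no setting stands in for replicate animals.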
